A study of Arabidopsis thaliana with 12 samples.

Results

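Among the genes that were more abundant in dark-grown pifq seedlings than in dark-grown wild type (WT), a minority kept nearly the same level when the seedlings grew on lincomycin (linc), and these PIF-repressed, lincomycin-insensitive genes are described here. They were selected on measured values: counts were divided by size factors (the median of ratios over 16228 genes with at least 10 counts in every library), and a locus was kept where the mean scaled count in pifq dark was at least 100, the pifq dark mean was at least 2 times the WT dark mean, and the ratio of the pifq dark linc mean to the pifq dark mean lay between 0.8 and 1.25. Of 33601 loci, 866 met the level and the fold, and 130 of these had a lincomycin ratio inside the window. The ratio was below 0.8 for 690 loci and above 1.25 for 46. The differences between pifq dark and WT dark and between pifq dark linc and pifq dark were thus fixed by the choice of the members and are given as description.

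The RNA came from whole etiolated seedlings of Arabidopsis thaliana, background Columbia, 3 days old and grown in darkness after a short pulse of white light to induce germination. The 4 groups were the pif1 pif3 pif4 pif5 quadruple mutant (pifq) on 0.5 mM lincomycin (pifq dark linc), pifq without the drug (pifq dark), WT on 0.5 mM lincomycin (WT dark linc) and WT without the drug (WT dark), with 3 biological replicates each. The libraries were directional, captured polyadenylated 3′ ends, and held 11495950 to 17612505 counts. In bulk RNA from whole seedlings, fewer cells of a type and less RNA per cell cannot be told apart.

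PIFs (phytochrome-interacting factors) are basic helix-loop-helix transcription factors that accumulate in darkness, hold back the expression of light-induced genes and keep the seedling etiolated, so that pifq seedlings look light-grown in the dark. Lincomycin blocks protein synthesis in plastids, and the resulting retrograde signal from the plastid to the nucleus lowers the expression of many nuclear genes for photosynthesis.

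The targeted genes were checked first. PIF3 had 24.7 to 28.7 scaled counts in pifq dark linc and 16.8 to 26.4 in pifq dark, against 1597 to 1741 in WT dark linc and 1367 to 1607 in WT dark. PIF1 (at most 8.98 in any pifq library, at least 205 in any WT library) and PIF5 (at most 13.2, at least 64.2) also matched the labels. PIF4 did not drop: it had 162 to 222 in pifq dark linc and 143 to 236 in pifq dark, against 116 to 153 in WT dark linc and 110 to 128 in WT dark. Only 3′ ends were counted, and the sources used here do not say where in PIF4 the lesion lies, so PIF4 reads check nothing about the genotype.

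The 130 members were spread over the genome, with 24, 22, 26, 26 and 32 of them on chromosomes 1 to 5, and comprised 127 protein-coding genes, 2 long non-coding RNAs and 1 pseudogene. Their ratio of pifq dark to WT dark ran from 2.01 to 147 with a median of 2.51; 88 members lay between 2- and 3-fold and 10 were at or above 10-fold. Their lincomycin ratio in pifq ran from 0.806 to 1.24 with a median of 0.941, and it was below 1 for 90 members and above 1 for 40. Together they took 1.31% ± 0.0336 of the counts in pifq dark linc and 1.12% ± 0.0983 in pifq dark, against 0.538% ± 0.0214 in WT dark linc and 0.512% ± 0.0443 in WT dark (SD, n = 3 each). These are shares of raw library totals, not scaled counts. Library totals raised the median of all genes by 0.33 on the log2 scale in pifq dark linc against pifq dark.

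**Figure D1:**
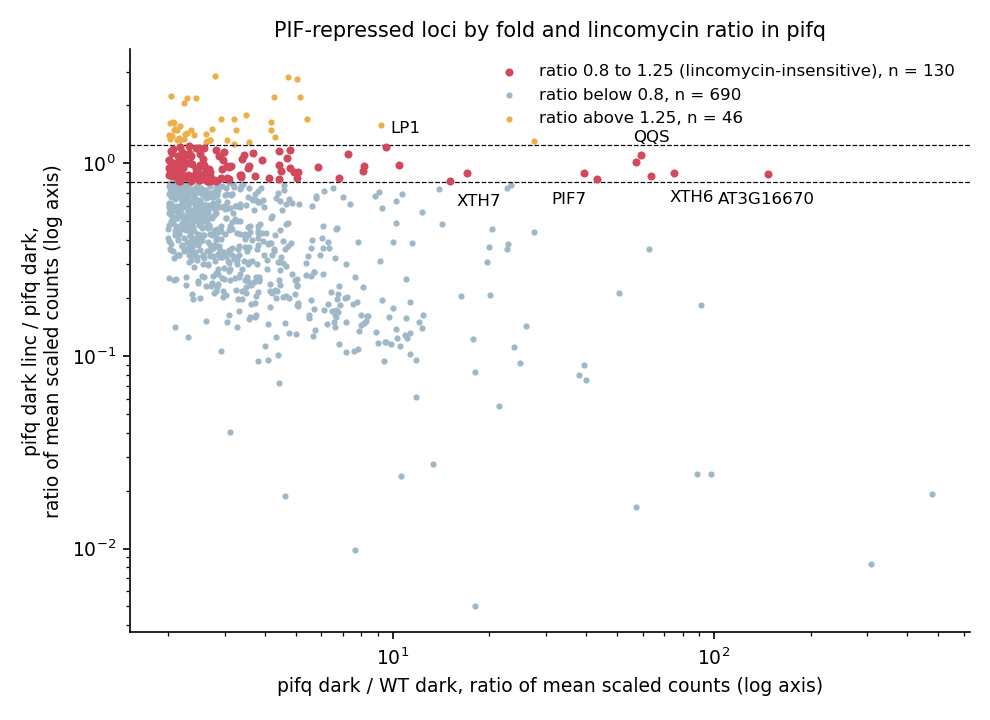
Each point is 1 of the PIF-repressed loci, placed by its ratio of mean scaled counts in pifq dark over WT dark (x, log axis) and in pifq dark linc over pifq dark (y, log axis), with dashed lines at ratios of 0.8 and 1.25; 1 locus with a WT dark mean of 0 is not drawn. The 130 members lie between the lines, and 10 of them sit at or beyond 10-fold on the x axis, out to AT3G16670 at 147.

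Genes of cell wall loosening and assembly were the largest group to which a role could be given from the annotation (19 members, roles assigned after the members were known). XTH6 encodes a xyloglucan endotransglucosylase/hydrolase, an enzyme that cuts and rejoins the xyloglucan chains between cellulose microfibrils. It had 2826, 2768 and 2255 scaled counts in pifq dark linc and 3492, 2848 and 2471 in pifq dark, against 18.2, 32.8 and 33.0 in WT dark linc and 31.6, 54.4 and 31.6 in WT dark. All 6 pifq libraries were above all 6 WT libraries and the drug-treated and untreated pifq libraries overlapped, with means 74.9-fold apart between pifq dark and WT dark and 93.5-fold apart between pifq dark linc and WT dark linc. XTH7, a second enzyme of this family, had 9060, 8635 and 7236 scaled counts in pifq dark linc and 12298, 10036 and 8560 in pifq dark, against 573, 586 and 816 in WT dark linc and 684, 718 and 644 in WT dark. Its pifq dark to WT dark ratio was 15.1, and its lincomycin ratio in pifq, 0.807, placed it just inside the lower bound. TCH4 (touch 4, the third enzyme of the family among the members) differed less, with means of 1893 in pifq dark linc and 1860 in pifq dark, against 929 in WT dark linc and 848 in WT dark. These were all the PIF-repressed loci annotated as xyloglucan endotransglucosylases: 3 members, with none below the window, of 29 such loci in the table.

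The remaining wall genes included structural proteins and pectin enzymes. AT3G16670, annotated as a Pollen Ole e 1 allergen and extensin family protein, had the largest ratio of all members. It had 139, 173 and 209 scaled counts in pifq dark linc and 176, 183 and 235 in pifq dark, against 2.14, 4.1 and 2.3 in WT dark linc and 2.21, 1.09 and 0.735 in WT dark. The WT dark libraries held 1 to 3 raw counts of it, so the ratio is loosely bounded: from summed counts it was 143, with a 95% counting interval of 61.0 to 443 (exact, covering counting error only). Its annotated relative AT2G27385 had 11051, 11123 and 10703 scaled counts in pifq dark linc and 14348, 13129 and 11668 in pifq dark, against 3496, 3912 and 3498 in WT dark linc and 3863, 4801 and 4166 in WT dark, a 3.05-fold ratio of pifq dark to WT dark. The drug-treated pifq libraries were all below the untreated ones, at a ratio of 0.840. AT1G04660, a glycine-rich protein, averaged 2138 ± 327 in pifq dark linc and 2105 ± 600 in pifq dark, against 31.8 ± 1.07 in WT dark linc and 36.8 ± 4.00 in WT dark (SD, n = 3 each), a 57.2-fold ratio. ENODL2 (early nodulin-like protein 2) averaged 3519 ± 219 in pifq dark linc and 3881 ± 327 in pifq dark, against 753 ± 126 in WT dark linc and 763 ± 162 in WT dark. EXPA5, an expansin that loosens walls, had a smaller ratio of 2.25 and a lincomycin ratio of 1.09. Of the PIF-repressed loci annotated with pectin, pectate or polygalacturonase, 5 were members and 1 lay below the window.

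Lipid and cuticle genes (11 members) held several of the largest ratios. AT4G28780, a GDSL-like lipase of a family that acts on acyl esters, had 1549, 1331 and 1046 scaled counts in pifq dark linc and 1703, 1537 and 1324 in pifq dark, against 17.1, 19.5 and 13.8 in WT dark linc and 22.8, 26.1 and 22.8 in WT dark. The ratio of pifq dark to WT dark was 63.6. LP1 (lipid transfer protein 1, a small secreted protein that binds lipids at the cell surface) had 7640, 6719 and 7164 scaled counts in pifq dark linc and 6578, 6227 and 4967 in pifq dark, against 681, 623 and 805 in WT dark linc and 555, 761 and 549 in WT dark. All 3 drug-treated pifq libraries of LP1 were above all 3 untreated ones, at a ratio of 1.21 that placed it near the upper bound. CYP96A12, a cytochrome P450 of a family with alkane hydroxylases, averaged 120 ± 8.12 in pifq dark linc and 135 ± 13.0 in pifq dark, against 14.9 ± 2.43 in WT dark linc and 7.92 ± 1.96 in WT dark (SD, n = 3 each). GDSL lipases as a family were split: 3 members, 2 loci below the window and 1 above it. PIF-repressed loci annotated with lipid transfer or 2S albumin were split too, with 2 members, 5 below and 3 above. Of the 18 cuticular wax and cutin genes listed, 0 were PIF-repressed by level and fold. Of the 16 tested, 0 were called higher and 3 lower in pifq dark than in WT dark.

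**Figure D2:**
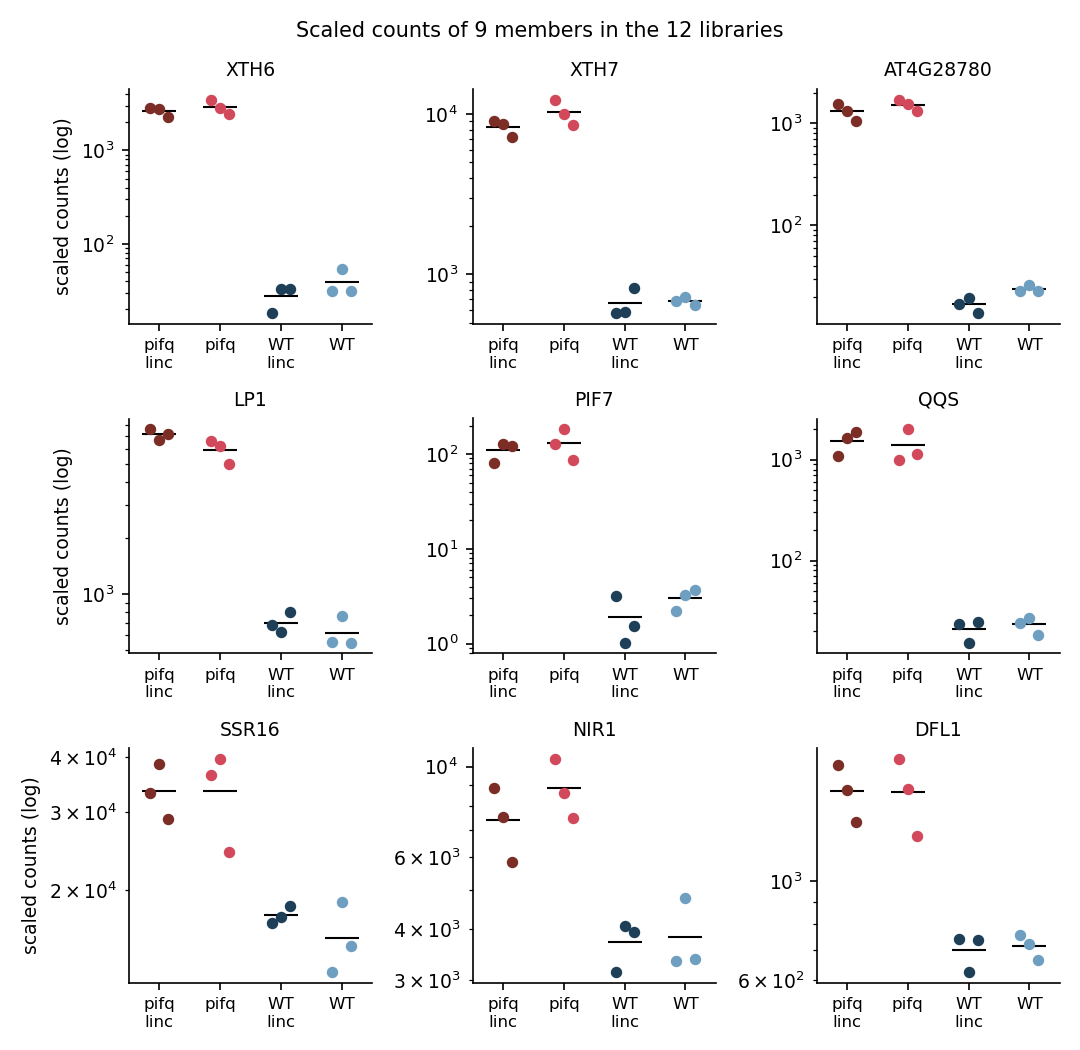
Scaled counts (y, log axis, a different range in each panel) of 9 members in the 12 libraries, by group along x; points are libraries and bars are group means. In all 9 panels both pifq groups lie above both WT groups, from about 2-fold for SSR16, NIR1 and DFL1 to 74.9-fold for XTH6.

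The members with a transcription factor role numbered 15. PIF7, a PIF that is intact in pifq, was the one with the largest ratio. It had 79.9, 129 and 121 scaled counts in pifq dark linc and 127, 183 and 85.5 in pifq dark, against 3.21, 1.02 and 1.53 in WT dark linc and 2.21, 3.26 and 3.68 in WT dark. The WT dark libraries held 3 to 5 raw counts, and the ratio from summed counts was 44.1 with a 95% counting interval of 24.4 to 89.3. STO (BBX24, a B-box protein that acts in light signalling) had 2144, 2132 and 2226 scaled counts in pifq dark linc and 2631, 2441 and 2527 in pifq dark, against 942, 1100 and 895 in WT dark linc and 1097, 1043 and 1051 in WT dark. Its drug-treated pifq libraries were all below the untreated ones, at a ratio of 0.856. Of the 17 B-box genes listed, 5 were PIF-repressed by level and fold, and STO was the only one inside the window, the other 4 lying below it. Growth and patterning regulators among the members included the growth-regulating factors GRF3 and GRF4, TCP10 and TCP14, the homeobox genes KNAT4 and BLH6, and SCRM2, a partner of the basic helix-loop-helix factors of the stomatal lineage. Their pifq dark to WT dark ratios were 2.09 to 4.12 and their lincomycin ratios in pifq 0.810 to 0.996. APL, which specifies phloem identity, averaged 176 ± 15.4 in pifq dark linc and 175 ± 14.6 in pifq dark, against 89.1 ± 19.7 in WT dark linc and 83.7 ± 13.5 in WT dark (SD, n = 3 each).

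Smaller groups covered auxin (8 members) and cell division (4 members). DFL1 and GH3.3 are GH3 enzymes, which conjugate auxin to amino acids and are induced by it. DFL1 had 1816, 1594 and 1356 scaled counts in pifq dark linc and 1877, 1605 and 1262 in pifq dark, against 743, 626 and 740 in WT dark linc and 759, 723 and 666 in WT dark, with a lincomycin ratio of 1.00 in pifq and 0.982 in WT. GH3.3 averaged 555 ± 60.2 in pifq dark linc and 556 ± 83.1 in pifq dark, against 235 ± 22.8 in WT dark linc and 242 ± 36.0 in WT dark. These were the 2 PIF-repressed genes among the 12 auxin response genes listed, of which 10 were tested: 2 were called higher and 3 lower in pifq dark than in WT dark, and their median log2 difference was −0.53. The auxin influx carrier LAX1 was a member with means of 525 in pifq dark linc and 605 in pifq dark, against 185 in WT dark linc and 180 in WT dark. CYCD3;1, a D-type cyclin of the entry into the cell cycle, averaged 318 ± 8.65 in pifq dark linc and 330 ± 12.5 in pifq dark, against 131 ± 17.0 in WT dark linc and 105 ± 4.43 in WT dark. SYP111 (KNOLLE, the syntaxin of the forming cell plate) averaged 156 ± 10.6 in pifq dark linc and 139 ± 22.7 in pifq dark, against 63.3 ± 1.87 in WT dark linc and 67.5 ± 7.95 in WT dark. Both were members and were the only genes PIF-repressed by level and fold among the 9 cell cycle genes listed, of which 7 were tested. CYCB1;1 and CDC6 met the fold (2.72 and 2.15) but not the level. Their pifq dark means were 25.6 and 9.46, and their lincomycin ratios in pifq 1.185 and 0.574.

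Plastid-directed products were a minority, with 12 members. SSR16, annotated as small subunit ribosomal protein 16, had the highest counts of any member, with 33070, 38509 and 28903 in pifq dark linc and 36410, 39642 and 24444 in pifq dark, against 16868, 17346 and 18400 in WT dark linc and 13055, 18812 and 14930 in WT dark. It was the single member among 32 PIF-repressed loci annotated as ribosomal proteins, and the other 31 lay below the window. NIR1, the plastid nitrite reductase of nitrate assimilation, had 8858, 7535 and 5831 scaled counts in pifq dark linc and 10457, 8609 and 7484 in pifq dark, against 3142, 4079 and 3940 in WT dark linc and 3345, 4766 and 3379 in WT dark. Of the 7 PIF-repressed genes among the 12 nitrogen assimilation genes listed, NIR1 was the member and the other 6 lay below the window. AT3G52960, a thioredoxin superfamily protein, averaged 7839 ± 1099 in pifq dark linc and 7231 ± 915 in pifq dark, against 4469 ± 732 in WT dark linc and 3252 ± 818 in WT dark (SD, n = 3 each). NDF5 and CRR6, which are needed for the chloroplast NDH complex, had lincomycin ratios in pifq of 0.880 and 1.04.

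Lists of photosynthesis genes held no member. All 31 PIF-repressed genes of the 32 light-harvesting and photosystem genes listed had a lincomycin ratio below 0.8 in pifq, as did all 9 of the Calvin cycle, all 11 of tetrapyrrole synthesis and all 8 of photorespiration and catalase. Over the whole table, 57 PIF-repressed loci were annotated with chlorophyll or photosystem, and each of them lay below the window. On the other side, the PIF-repressed genes of the auxin response (2), cell cycle (2), aquaporin (1), phloem (1) and PIF relative (1) lists were all members. Over the whole table these themes were split. PIF-repressed loci annotated with cyclin were 2 members, 3 below the window and 1 above it. Those annotated with auxin or SAUR were 3 members, 1 below and 1 above. PIP2;8, the aquaporin, averaged 519 ± 59.1 in pifq dark linc and 491 ± 71.1 in pifq dark, against 141 ± 17.0 in WT dark linc and 144 ± 17.6 in WT dark. The lists were drawn up with earlier results of these data known, and these are counts, not tests.

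**Figure D3:**
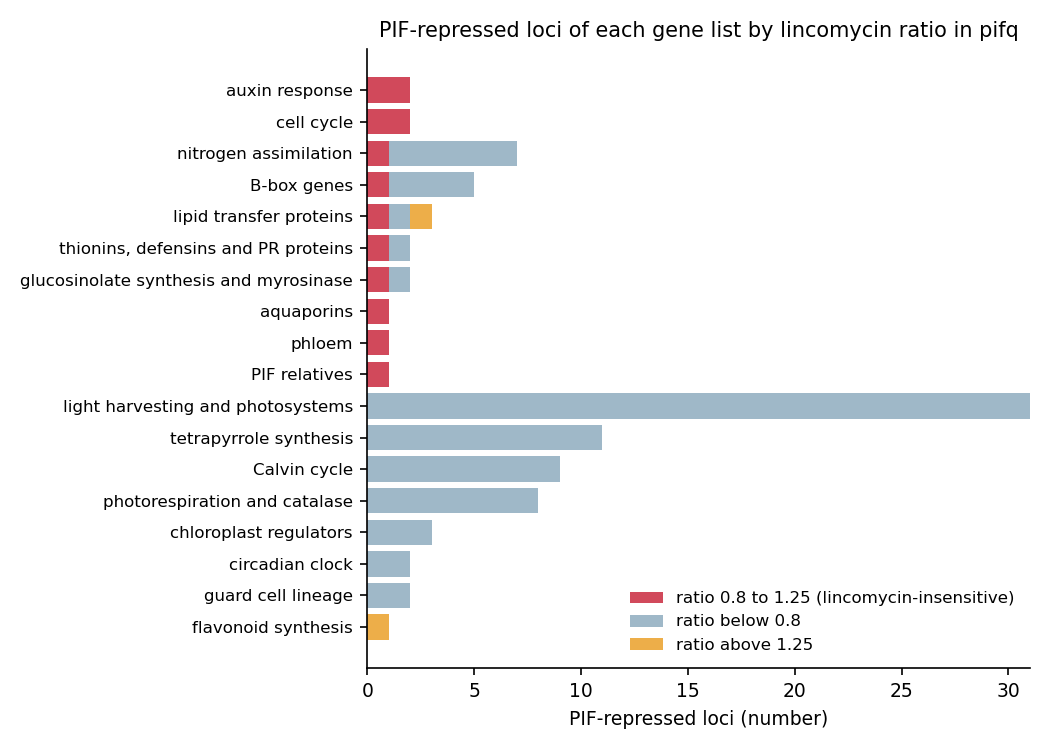
Number of PIF-repressed loci (x) in each gene list with at least 1 such locus (y), coloured by whether the ratio of pifq dark linc to pifq dark was inside, below or above the window of 0.8 to 1.25. The 31 light-harvesting and photosystem loci are all below the window, and the 2 auxin response and 2 cell cycle loci are all inside it.

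Other members fell in no group above, some with large ratios and some with ratios near the median. QQS, a gene found only in A. thaliana that affects starch content, had 1077, 1636 and 1894 scaled counts in pifq dark linc and 998, 2009 and 1145 in pifq dark, against 23.5, 15.4 and 24.5 in WT dark linc and 24.3, 27.2 and 18.4 in WT dark. The ratio of pifq dark to WT dark was 59.5, and the untreated pifq libraries ran from 998 to 2009. THI2.2, an antimicrobial thionin, averaged 443 ± 26.9 in pifq dark linc and 496 ± 106 in pifq dark, against 15.8 ± 3.90 in WT dark linc and 12.6 ± 1.38 in WT dark (SD, n = 3 each). The thionin gene AT1G66100 was also PIF-repressed by level and fold, but lay below the window at a lincomycin ratio of 0.0448. The glutaredoxin AT1G06830 averaged 112 ± 11.5 in pifq dark linc and 114 ± 10.2 in pifq dark, against 10.5 ± 2.21 in WT dark linc and 10.9 ± 3.10 in WT dark. TGG2, a myrosinase that hydrolyses glucosinolates, averaged 229 ± 39.6 in pifq dark linc and 201 ± 43.1 in pifq dark, against 94.4 ± 13.8 in WT dark linc and 86.4 ± 8.93 in WT dark. The more abundant TGG1 was PIF-repressed as well, but lay below the window at a lincomycin ratio of 0.590. MEE59, named for the maternal effect embryo arrest of its mutant, averaged 6623 ± 960 in pifq dark linc and 5532 ± 1146 in pifq dark, against 2118 ± 124 in WT dark linc and 2271 ± 422 in WT dark.

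Values close to the limits of the selection show how the members shade into their neighbours. Just inside the lower lincomycin bound were AT3G53190 (0.806), XTH7 (0.807) and AT3G59980 (0.808), and just outside were the expansin gene EXPA10 (0.797), BIOF (0.797) and LTO1 (0.796). Just inside the upper bound were AT3G02120 (1.24), AT2G14115 (1.22) and LP1 (1.21), and just outside were the chalcone isomerase gene TT5 (1.26), DR4 (1.29) and AT4G22730 (1.296). For the fold, AT1G68260 (2.01), TMKL1 (2.01) and AT3G03040 (2.01) were inside and AT2G28410 (1.995), GIL1 (1.995) and KCS19 (1.99) outside. For the level, TMKL1 (104), AT1G68260 (105) and AT2G21220 (107) were inside and ATMYC1 (95.5), ROPGEF6 (95.2) and AT1G23340 (95.2) outside.

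The contrasts used in the choice were fitted across all genes with edgeR's quasi-likelihood test only to place the members. In pifq dark against WT dark, 129 of 130 members were called higher at 2-fold or more and an adjusted p of at most 0.01, against 6.6% of all 13456 genes tested, and the 3 pifq dark libraries were above the 3 WT dark libraries for 129 members, against 26.4% of all genes. In pifq dark linc against pifq dark, none of the 130 members was called at an adjusted p of at most 0.05 by edgeR or by DESeq2. Of all 13142 genes, 23.2% were called by edgeR (9.68% higher and 13.5% lower). By edgeR's unadjusted p under 0.05, 0 members were higher and 9 lower, against 2159 higher and 2568 lower of the 13142 genes. The groups did not overlap for 17 members, against 39.6% of all genes. The median log2 difference of the members was −0.10 with a median SE of 0.15 (0.11 to 0.35), while the window reaches 0.32 on either side of 0. Same-numbered replicates deviated together in this pair of groups, and when replicate numbers entered the fit as a block, 3 members were called higher and 22 lower, against 20% and 21.8% of all genes. The 3 were LP1, MEE59 and AT3G02640, at log2 differences of 0.25 to 0.27, and those lower included XTH7 (−0.32), AT4G16980 (−0.31), NIR1 (−0.28) and STO (−0.24). "Insensitive" thus means a small mean ratio, not one shown to be 1.

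The selection was also repeated with 1 replicate number left out, and the lincomycin ratio was then read in the libraries left out, which had no part in that choice. Without number 1, 2 or 3, the rule gave 115, 154 and 155 loci, and 70 of the 130 members were chosen all 3 times. The held-out ratio of pifq dark linc to pifq dark, from a single library of each, lay inside the window for 66.1%, 74.0% and 70.3% of these loci, with medians of 0.910, 0.973 and 0.968. For PIF-repressed loci chosen as below the window in the same way, 3.40%, 7.14% and 6.57% lay inside it in the held-out libraries. The held-out ratio of pifq dark to WT dark was at least 2 for 87.8%, 61.0% and 60.6% of the chosen loci. The size factors for the held-out ratios came from all 12 libraries. Most genes lie inside the window in any case. With all replicates, the log2 difference of all 13142 genes fitted had quartiles of −0.25 and 0.23, and the window reaches 0.32 either way. The shares of all genes in the held-out libraries, inside the window or at 2-fold, were not worked out. The held-out shares of the chosen loci thus cannot be set against a background.

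Whether the members responded to lincomycin in WT was fixed by the choice only in part. The WT dark linc libraries were not used in it, but the WT dark libraries were, and a chance low value in WT dark favours both membership and a higher ratio of WT dark linc to WT dark, so that values on the higher side are not independent of the choice. Of the 130 members, 98 passed the filter on low counts (a CPM, or count scaled to library size, of 5 in at least 2 of the 6 libraries), and 32 with WT dark means of at most 65.5, among them XTH6, PIF7, QQS and AT4G28780, were not tested. In WT dark linc against WT dark, 2 of the 98 were called higher and 2 lower by edgeR's quasi-likelihood test at a Benjamini-Hochberg adjusted p of at most 0.05, against 3.03% higher and 3.08% lower (6.11% in all) of 13455 genes tested. These shares are near the background. At an unadjusted p under 0.05, 15 were higher and 5 lower, against 1349 higher and 1525 lower of the 13455 genes. The 3 libraries of each group did not overlap for 15 of the 98 (11 higher and 4 lower on lincomycin), against 22.9% of all genes. The median log2 difference of the 98 was 0.07 (quartiles −0.05 and 0.30), against −0.01 over all genes. Over PIF-repressed loci below the window, 218 of 572 tested were called lower and 2 higher, with a median of −0.37, and of the light-harvesting and photosystem genes listed 31 of 32 were called lower, with a median of −2.45.

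**Figure D4:**
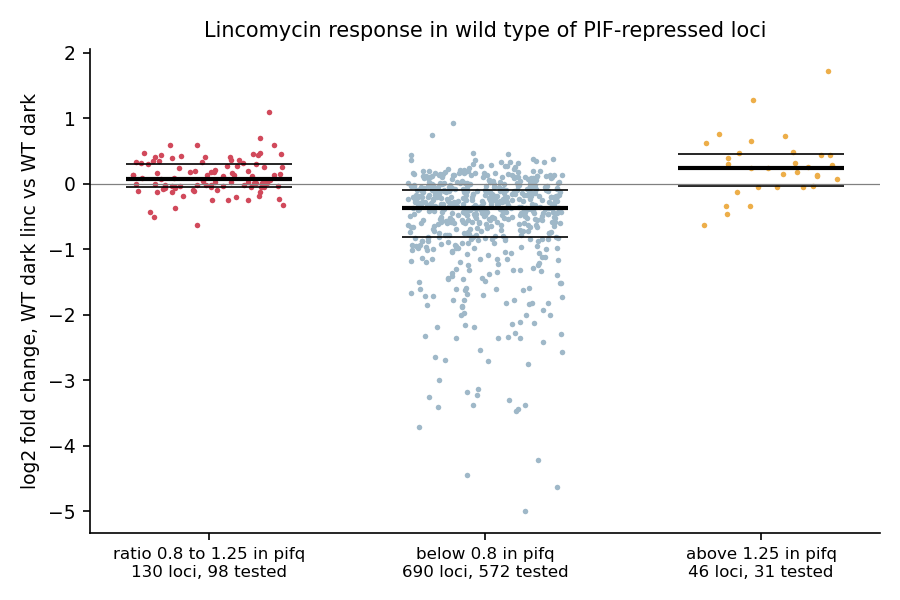
Fitted log2 difference between WT dark linc and WT dark (y) of each PIF-repressed locus that passed the filter on low counts, by class of the lincomycin ratio in pifq (x); thick bars are medians and thin bars quartiles, and the sideways spread of points carries no meaning. The 98 members centre on 0.07 and the 572 loci below the window on −0.37.

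In ratios of group means over all 130 members, WT dark linc to WT dark had a median of 1.01 (0.630 to 2.15), with 93 inside 0.8 to 1.25, 13 below and 24 above. The 32 untested members had a median of 0.904.

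The 4 members called in WT were from unrelated families. AT4G00030, a plastid-lipid associated (fibrillin) protein of a family found on plastid lipid bodies and thylakoids, had 147, 165 and 207 scaled counts in pifq dark linc and 207, 193 and 204 in pifq dark, against 163, 169 and 150 in WT dark linc and 75.7, 65.3 and 83.1 in WT dark. It rose in WT on lincomycin with no overlap between the groups (log2 difference 1.09 ± 0.16 SE, edgeR adjusted p = 0.000325), so that the ratio of pifq to WT was 1.08 with the drug and 2.69 without it. AT2G42290, a leucine-rich repeat protein kinase, had 94.1, 154 and 127 in WT dark linc, against 77.9, 81.6 and 74.3 in WT dark, and rose without overlap (0.69 ± 0.18 SE, edgeR adjusted p = 0.0365). AT4G16980, of the arabinogalactan-protein family of wall proteoglycans, had 4391, 3993 and 3811 in WT dark linc, against 6770, 5192 and 5518 in WT dark, and fell (−0.51 ± 0.13 SE, edgeR adjusted p = 0.0318). AT2G43530, a knottin-like small protein, had 82.3, 70.7 and 61.4 in WT dark linc, against 96.3, 115 and 119 in WT dark, and fell (−0.63 ± 0.18 SE, edgeR adjusted p = 0.0495). The calls depended on single replicate numbers: without number 2, 14 members were called higher and 3 lower, and without number 3, 1 was called higher and 0 lower (edgeR), the 1 being AT4G00030. The share of all genes called without these numbers was not worked out. These changes thus cannot be told from a change in calling over all genes.

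**Figure D5:**
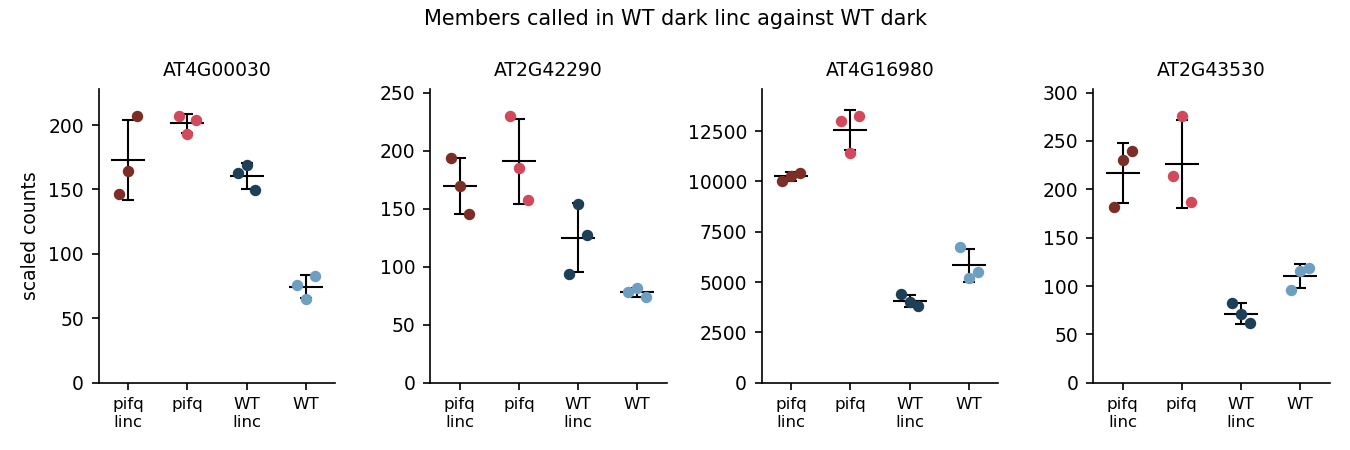
Scaled counts (y, from 0, a different range in each panel) of the 4 members called in WT dark linc against WT dark, by group along x; points are the 3 libraries of a group, and bars are the mean and SD. AT4G00030 and AT2G42290 are higher and AT4G16980 and AT2G43530 lower in WT dark linc than in WT dark.

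Other abundant members gave values short of the threshold in WT. AT5G11420, a protein of unknown function (DUF642), had 3415, 5191 and 4319 scaled counts in WT dark linc, against 2454, 3576 and 2581 in WT dark, and these overlapped (0.59 ± 0.17 SE, edgeR adjusted p = 0.052); it was called under 6 of the alternatives tried. AT3G52960 had a log2 difference of 0.46 ± 0.17 (edgeR adjusted p = 0.134), LP1 0.19 ± 0.15 (edgeR adjusted p = 0.497) and XTH7 −0.04 ± 0.14 (edgeR adjusted p = 0.894). For the GH3 genes the values were −0.02 ± 0.12 for DFL1 (edgeR adjusted p = 0.946) and −0.03 ± 0.14 for GH3.3 (edgeR adjusted p = 0.921).

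On lincomycin, most members were higher in pifq than in WT. In pifq dark linc against WT dark linc, 88 of 130 were called higher at 2-fold or more and an adjusted p of at most 0.01, against 3.75% of all 13557 genes, and the pifq dark linc libraries were all above the WT dark linc libraries for 126 members, against 23.6% of all genes. The pifq dark linc libraries were part of the choice, so these are descriptions. The median log2 difference was 1.24. Loci below the window were called in 202 of 614 tested, with a median of 0.69, and loci above it in 43 of 46.

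Which genes met the rule depended little on the kind of size factor but strongly on using library totals. TMM-scaled counts gave 133 loci, among them all 130 members. Library totals divided by size factors were 12674208 to 14476011 in pifq dark linc and 16117570 to 17771168 in pifq dark, against 12809832 to 13665778 in WT dark. Dividing by library totals moved the median of all genes by −0.38 on the log2 scale in pifq dark against WT dark and by 0.33 in pifq dark linc against pifq dark. On that scaling 91 loci met the rule, and 39 of them were among the 130.

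Summed counts of marker lists of other cell types also differed between the genotypes, in both directions. The summed scaled counts of 8 guard cell lineage genes were 472 to 508 in pifq dark linc and 649 to 751 in pifq dark, against 243 to 269 in WT dark linc and 302 to 352 in WT dark; 0 of the 8 were at 0. For the 2 phloem genes, which include the member APL, the sums were 482 to 607 in pifq dark linc and 597 to 693 in pifq dark, against 335 to 376 in WT dark linc and 396 to 468 in WT dark. The sums were lower in pifq dark for 5 root and root hair genes (36491 to 45510 in pifq dark, against 49565 to 54211 in WT dark), 4 xylem genes (927 to 1183 in pifq dark, against 1277 to 1469 in WT dark) and 9 seed reserve genes (321 to 543 in pifq dark, against 937 to 1839 in WT dark). PYK10 held nearly all root counts, with a ratio of pifq dark to WT dark of 0.796. EXPA18 was also lower, but COBL9, EXPA7 and WOX5 had ratios above 1. Of the xylem genes only XCP1 was lower (0.532), with IRX1, IRX3 and IRX5 above 1. All 9 seed reserve genes were lower, most strongly CRA1 (0.241) and CRU3 (0.288). In the guard cell list MYB60, KAT1 and SPCH were near 1, and the other genes were higher. No gene of these lists was at 0 in a whole group. The part of these cell types in the members' levels was not tested.

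The members' promoters were searched for motifs known to bind PIFs, since the members were chosen for their difference in a PIF mutant. The G-box (CACGTG, the same on both strands) lay in the 250 bases before the annotated start of 9 of the 127 members with a window (7.09%), against 10.8% of the 678 loci below the lincomycin window and 6.58% of 26711 promoters in all. The PBE-box (CACATG, both strands) was in 13.4% of the members, 11.9% of the loci below the window and 11.2% of all promoters. The sites are shown with 12 bases on either side, 5′ to 3′ on the gene's strand in the RefSeq TAIR10.1 assembly, with each G-box in capitals, for the CONSTANS-like zinc finger gene COL4 (chr5:8589276-8589305, plus strand, the box starting 169 bases before the start), the abundant gene AT5G11420 (chr5:3644472-3644501, plus strand, 63 bases), a KNOTTED-like homeobox gene KNAT4 (chr5:3509693-3509722, plus strand, 128 bases) and the lincomycin-responsive gene AT4G00030 (chr4:13388-13417, plus strand, 127 bases, with a further box at 116 bases).
COL4: ctaagattttacCACGTGtcaacttttcat
AT5G11420: gagtcacggcccCACGTGgatacgtgaatc
KNAT4: tcgttatcacgaCACGTGtcctccgatatt
AT4G00030: ttttatcgtagaCACGTGacgcgCACGTGc
None of the 10 members with the largest ratio held either box in this window. Of the other motifs searched on both strands, the GLK site (CCAATC) was in 7.87% of the members, 13.9% of the loci below the window and 10.2% of all promoters. The I-box (GATAAG) was in 8.66%, 18.4% and 12.2% of the same promoters, the site II motif (TGGGCC) in 9.45%, 17.7% and 13.9%, the evening element (AATATCT) in 7.09%, 10.6% and 10.1%, the ACGT core, which the G-box contains, in 43.3%, 47.2% and 44.2%, and the MYB site (GGTAGGT) in 0.787%, 1.33% and 1.16%. These are matches of letters, and no difference between the shares was tested.

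Neighbouring and similar genes bear on a few members. The 3′ ends of AT1G67400, KCS8, AT2G27402 and AT3G28160 matched another gene at 90% identity or more over at least 100 bases, so reads of these pairs could be shared. The annotation places 27 members over a gene on the opposite strand, which the directional counts keep apart, and 2 over a gene on the same strand (CYCD3;1 and AT1G67400), for which they do not. BLH6 and SSR16 were the closest pair of members, 1493 bases apart.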

How the data were processed

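Total RNA from whole seedlings of the 12 samples was made into directional 3′-end libraries by the authors, who per the labels and the methods mapped reads with Bowtie 0.12.7 to the TAIR10 transcripts, allowing 1 mismatch, and counted reads on the coding strand of the last 500 bp. The deposited values are raw counts per locus, of which 32835 of 33601 were named from the RefSeq TAIR10.1 annotation. Each biological replicate was sequenced in duplicate technical runs; how the runs were joined is not given in the sources used here. Counting only the 3′ end makes counts of a gene independent of its length, and a lesion upstream of it may leave its reads in place.

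Group means and ratios are of counts divided by median-of-ratios size factors. Tests were edgeR 4.0.16 quasi-likelihood F tests (TMM scaling, R 4.3.3) on the 6 libraries of each pair of groups, after keeping genes with a CPM of 5 in at least 2 libraries, with Benjamini-Hochberg adjustment over all genes tested. A gene was called at an adjusted p of at most 0.05 between drug and no drug, and at 2-fold and an adjusted p of at most 0.01 between genotypes. The SE of a log2 difference was its size over the square root of F. The test was tested on simulated data for WT dark linc against WT dark (13253 genes): it recovered 100 of 100 genes raised 4-fold and 98 of 100 lowered 4-fold and called 8 unchanged genes. Smaller changes, such as those of the members in WT, were not simulated. Total counts differed less than 2-fold between libraries; counts of 3 or fewer give only wide ratios.

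Whether replicate numbers pair the samples was checked by correlating the deviations of same-numbered libraries from their group means. In pifq dark linc and pifq dark every pair was above 0.1 (0.353 to 0.518), so the numbers were taken as pairing there from the data; in WT dark linc and WT dark they ran from −0.0521 to 0.511 and were not.

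Alternatives were RLE and library-total scaling, DESeq2 1.42.0, all 12 libraries in the fit, a replicate block, no filter, leaving out each replicate number, and other limits of the selection. The members, gene lists and roles were chosen with earlier results of these data known. Members named are the 10 with the highest pifq dark mean, the 10 with the largest pifq dark to WT dark ratio, those called in WT, those at the limits and those on a gene list; TCH4, EXPA5, LAX1, GRF3, GRF4, TCP10, TCP14, KNAT4, BLH6, SCRM2, NDF5, CRR6, COL4, the 3 formins and those called with the block or named for neighbouring or similar genes were added after their values were seen. Lists with no PIF-repressed gene (light signalling, jasmonate, wax and cutin, root, xylem, seed reserves, dark-inducible genes) gave no member.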

Additional observations from a re-analysis of the deposited data

How the results depend on the processing

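For the 98 members tested in WT dark linc against WT dark, 2 were called higher and 2 lower. The count called higher was 13 with the replicate block and 9 with no filter on low counts, and 1 to 14 with 1 replicate number left out. The count called lower was 1 with RLE size factors, 1 with library totals, 1 with all 12 libraries in the fit, 4 with the replicate block, and 0 to 3 with 1 number left out. Same-numbered libraries did not deviate together in every WT pair, so the block there carries no meaning beyond a shared number. In pifq dark against WT dark, library totals gave 58 members called higher, against 129, and a median log2 difference of 0.95, against 1.33; it was 1.24 to 1.41 with 1 number left out. In pifq dark linc against pifq dark, where none was called, library totals gave 26 called higher and a median of 0.22, against −0.10, and the replicate block, with the numbers pairing the samples, 3 higher and 22 lower; leaving out 1 number gave 0 to 1 higher and 0 to 9 lower. In pifq dark linc against WT dark linc the median was 1.19 to 1.27 with 1 number left out, against 1.24. Apart from the block in pifq dark linc against pifq dark, shares of all genes called under the alternatives were not worked out. A change in the counts of called members thus cannot be told from a change over all genes. A fit of the drug response by genotype, chosen after seeing the data, is not reported, since 9 of its 12 libraries were used in the choice of the members. The rule gave 187 loci with a pifq dark mean of at least 50, 88 with at least 200, 133 with TMM-scaled counts, 91 with library totals, 42 loci with a fold of at least 3, 62 with a narrower window of 0.9 and its inverse, and 115 to 155 with 1 number left out, against 130. Of 187 values of single named members under the alternatives, 157 kept both their sign and their call or lack of a call. Another 13 changed sign without a call in either fit, 10 passed the threshold in addition and 7 lost it. None of those called changed sign. AT4G16980 lost its call without number 1 or 3, AT2G42290 without number 3, and AT2G43530 without number 3 and under 3 other settings. For members with WT counts near the filter, depth limited the test: 32 were not tested.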

Other observations

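The long non-coding RNA AT3G59068, a member, lies 1355 bp from PIF5, one of the mutated genes. It had 173, 181 and 127 scaled counts in pifq dark linc and 174, 155 and 102 in pifq dark, against 85.5, 65.6 and 65.2 in WT dark linc and 55.9, 68.6 and 46.3 in WT dark. The next nearest member to a mutated PIF gene, AT2G43530, is 181023 bp from PIF4. Whether the lesion in PIF5 bears on AT3G59068 was not tested.

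The actin-binding formins were another group not described above. AT2G43800 averaged 151 in pifq dark linc and 131 in pifq dark, against 36.7 in WT dark linc and 29.5 in WT dark. AT5G48360 averaged 336 in pifq dark linc and 330 in pifq dark, against 169 in WT dark linc and 152 in WT dark. The third, AT3G07540, averaged 134 in pifq dark linc and 136 in pifq dark, against 35.5 in WT dark linc and 52.6 in WT dark.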
